A study of Homo sapiens with 9 samples.

Results

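The mitochondrial chromosome carried 47 of the 5010 Ago-HITS-CLIP peaks called for miR-342-5p over the negative control (0.938%, 95% Wilson interval 0.706–1.25%) and 0 of the 3450 peaks called for miR-342-3p, which allows a share of up to 0.0870%. These peaks were taken as every peak on that chromosome in both deposited lists and placed by their midpoint on the 37 mitochondrially encoded genes, which are 2 rRNA, 22 tRNA and 13 mRNA genes. The members were thus chosen by where peaks had been called in these lists, and the numbers, scores and widths of peaks are given as a description without a test.

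The libraries came from MDA-MB-231HM cells, a highly metastatic variant of a human triple negative breast cancer line, labelled as wild type. Cells received 20 nM of a miR-342-3p mimic, a miR-342-5p mimic or a negative control mimic, were crosslinked after 48 h, and gave 3 libraries per mimic. The assay fixes Argonaute to its RNA by ultraviolet light, pulls it down with an antibody to Ago2 and sequences the short RNA pieces that come with it. Each list pools the replicates of a mimic over the same negative control libraries, so both lists share their controls, values per library were not analysed here, the depth is unknown and the intervals cover counting error only. The score of a peak is described as reads above background, and no score lies below 5. The lists hold no RNA level, so more Ago on a transcript and more of the transcript cannot be told apart, and the identity of the cells could not be checked against marker genes.

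The mitochondrial chromosome is transcribed as long precursors from both strands. The tRNAs, folded between most rRNA and mRNA genes, mark the positions where the precursors are cut, and the mRNAs encode core subunits of the respiratory complexes and of ATP synthase. Most genes are read along 1 strand, called plus in the reference. ND6 and 8 of the tRNA genes are read from the minus strand, and the plus strand transcript that runs across them is antisense to them.

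Gene positions and sequence were taken from the revised Cambridge version of the chromosome (16569 nt, with a placeholder base at 3107), which is the version in the GRCh37 reference used here. The lists are on hg19, which can hold an older version whose positions differ by 1 or 2 nt, and the highest peak end on the chromosome, 16333, does not tell these versions apart. Moving all genes by 1 or by 2 nt left every gene with the same number of peaks. The printed positions may be off by that amount.

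The mature strands are shown first, since a site is read as a match to their seed (bases 2 to 8, in capitals). The sequences are from RefSeq.
miR-342-5p: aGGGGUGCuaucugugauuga
miR-342-3p: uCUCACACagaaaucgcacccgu

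For miR-342-5p, an 8mer site is GCACCCCA, a 7mer is GCACCCC or CACCCCA, and the 6mer common to all of them is CACCCC. For miR-342-3p, the 8mer is GTGTGAGA and the 7mers are GTGTGAG and TGTGAGA. On the plus strand of the mitochondrial chromosome there were 9 miR-342-5p sites of 7 nt and no 8mer, and on the minus strand there were 0. For miR-342-3p there was 1 site on the plus strand, in CO1, and 5 on the minus strand. The 6 miR-342-5p sites that lay within 50 nt of a peak summit are printed with the site in capitals. Of these, 5 lay under a peak, and the ND6 site lay just outside one.
MT-TF, chrM:624-653, plus strand: cgggctcacatCACCCCAtaaacaaatagg
MT-ND2, chrM:4820-4849, plus strand: ggttacccaagGCACCCCtctgacatccgg
MT-ND2, chrM:5424-5453, plus strand: catacaaaaccCACCCCAttcctccccaca
MT-ND5, chrM:12955-12984, plus strand: aatccaagcctCACCCCActactaggcctc
MT-ND5, chrM:13045-13074, plus strand: atagaaggcccCACCCCAgtctcagcccta
MT-ND6, opposite strand of the gene, chrM:14327-14356, plus strand: accacaaccacCACCCCAtcatactctttc

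All 47 mitochondrial peaks were on the plus strand and 0 on the minus strand. Together they covered 4200 nt, 25.3% of the chromosome. The midpoint lay in a gene of the same strand for 43 peaks and in ND6, on the strand opposite to it, for 3, and the remaining peak was in the non-coding control region. Many peaks abutted each other. Of the 46 gaps between neighbours, 28 were at most 4 nt, and joining peaks less than 50 nt apart left 15 stretches with a median length of 263 nt. The largest stretches held 6 peaks each, in CO2 (7601–8237) and in ND5 (12728–13287).

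Scores ranged from 6 to 1062 with a median of 50 (quartiles 26 and 156), while the 4963 nuclear peaks of the same list had a median of 19 (quartiles 11 and 37). A score above 100 was reached by 15 mitochondrial peaks (31.9%) and by 346 nuclear peaks (6.97%). The mitochondrial peaks made up 0.938% of the peaks and 2.68% of the summed score, or 3.06% when the highest peak of the list, a score of 27731, was left out. Only 4 nuclear peaks scored above the highest mitochondrial one. Widths were alike, with a median of 79 nt (range 13–215) for mitochondrial and 78 nt for nuclear peaks.

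**Figure D1:**
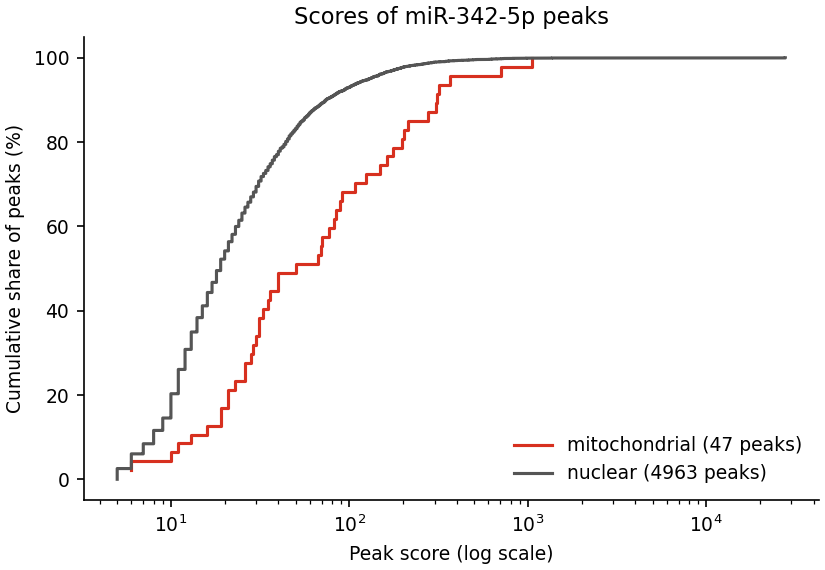
Cumulative share of miR-342-5p peaks (%) up to each score (log scale) for the 47 mitochondrial and the 4963 nuclear peaks. The mitochondrial curve lies to the right, with a median of 50 against 19.

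By midpoint, 13 of the 37 genes had a miR-342-5p peak and 24 had none. The genes with a peak were 1 of 2 rRNA, 9 of 13 mRNA and 3 of 22 tRNA genes. The mRNA genes include ND6, whose peaks are all on the opposite strand, and with the strand of the gene required 12 of the 37 genes had a peak. Among nuclear protein-coding genes, expressed or not, 11.8% held the midpoint of a miR-342-5p peak of the same strand, and the miR-342-3p list gave 11.8% as well. These shares are given as background only. Peaks covered 31.0% of the mRNA sequence, 16.1% of the rRNA and 9.95% of the tRNA. Cover was counted without regard to strand, so that of the mRNA genes includes 182 nt in ND6 under peaks on the opposite strand.

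The highest scores were in the 12S rRNA, the RNA of the small subunit of the mitochondrial ribosome, encoded by MT-RNR1 (648–1601). In order along the gene, its 4 peaks had scores of 703 (685–831), 365 (833–874), 1062 (941–1012) and 308 (1014–1055). They ranked 2, 3, 1 and 5 among the mitochondrial peaks, and all of them lay in the 5′ part of the gene, with no peak from 1056 to 1604. No 7mer site was present within 50 nt of these summits, but both of the highest had a 6mer match beside the summit, at 954–959 and 800–805. The 30 nt around these summits are shown with the 6mer in capitals.
MT-RNR1, score 1062, chrM:946-975, plus strand: ttttagatCACCCCctccccaataaagcta
MT-RNR1, score 703, chrM:781-810, plus strand: aaaacgcttagcctagccaCACCCCcacgg

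The 16S rRNA, the large subunit RNA encoded by MT-RNR2 (1671–3229), had no peak by midpoint. A single peak with a score of 214 (1605–1735) spanned the junction of MT-TV, the valine tRNA, and this gene. Its midpoint, 1670, is the last base of MT-TV and its summit, 1711, is inside MT-RNR2, so it counted for the tRNA by midpoint and for the rRNA by summit. It covered 95.7% of MT-TV and 4.17% of MT-RNR2. After it, 1730 nt had no peak.

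Complex I, the NADH dehydrogenase that feeds electrons into the respiratory chain, has 7 mitochondrially encoded subunits. ND5 (12337–14148) had the most peaks of any gene, 11, with low scores of 10 to 82 and a median of 26. They lay in 2 stretches, with a short peak near the end of the gene. All peaks that overlap ND5, with 1 whose midpoint is in ND6, covered 45.8% of it. ND2 (4470–5511) had 4 peaks with scores of 40, 277, 89 and 304, and the 277 and 304 peaks were those with a 7mer site. ND3 (10059–10404) had 3 peaks, with scores of 19, 198 and 23, and the highest cover of any mRNA, 96.0% of 346 nt. A 6mer match was near the summit of its 198 peak alone. ND1 (3307–4262) had 3 peaks with scores of 91, 21 and 28 and no match within 50 nt of any summit. ND4 (10760–12137) and ND4L (10470–10766), which share a transcript, had none.

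ND6 is the only mRNA of the minus strand. The midpoints of 3 peaks were in it (14149–14673), with scores of 35, 77 and 175, and all were on the opposite strand, so that ND6 itself had no peak. The first of them (14087–14230) runs over the end of ND5 on its own strand. The 175 peak is 28 nt wide (14305–14332), and its summit at the last base is 9 nt from the centre of a CACCCCA site that begins 6 nt after the peak ends. Of the 8 minus strand tRNA genes, none had a peak on either strand.

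Complex IV, cytochrome c oxidase, has 3 mitochondrially encoded subunits, which form its catalytic core. CO2 (7586–8269) had 6 peaks with scores of 33, 84, 70, 108, 162 and 319, the last being nearest to the 3′ end. They covered 90.4% of the gene, and there was no 6mer, 7mer or 8mer match within 50 nt of any of the 6 summits. CO3 (9207–9990) had 4 peaks, with scores of 69, 19, 13 and 124, of which the last had a 6mer match. CO1 (5904–7445), the largest of the 3, had no peak.

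In complex V, the ATP synthase, ATP6 (8527–9207) had peaks with scores of 203 and 6. The 203 peak had a 6mer match 9.5 nt from its summit, and the other was 15 nt wide at the very end of the gene. ATP8 (8366–8572), whose reading frame overlaps that of ATP6, had none. Cytochrome b of complex III, encoded by CYB (14747–15887), had 3 peaks with scores of 40, 67 and 29, covering 17.8% of the gene. A single 6mer match (15535–15540) lay within 50 nt of the first and the second summit.

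Of the tRNA genes, MT-TF (phenylalanine, 577–647) had a peak with a score of 149 (600–683) that reached into the 12S rRNA, and MT-TG (glycine, 9991–10058) had one with a score of 6 (10029–10060). MT-TV was described above. All 3 of these peaks crossed the boundary to the next gene. MT-TW was overlapped for 6 nt by the end of an ND2 peak. The other 18 tRNA genes, those for alanine, asparagine, aspartate, arginine, cysteine, glutamate, glutamine, histidine, isoleucine, leucine (MT-TL1 and MT-TL2), lysine, methionine, proline, serine (MT-TS1 and MT-TS2), threonine and tyrosine, had no overlap with a peak. The peak outside all genes had a score of 31 (16221–16333) and a 6mer match at its summit.

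**Figure D2:**
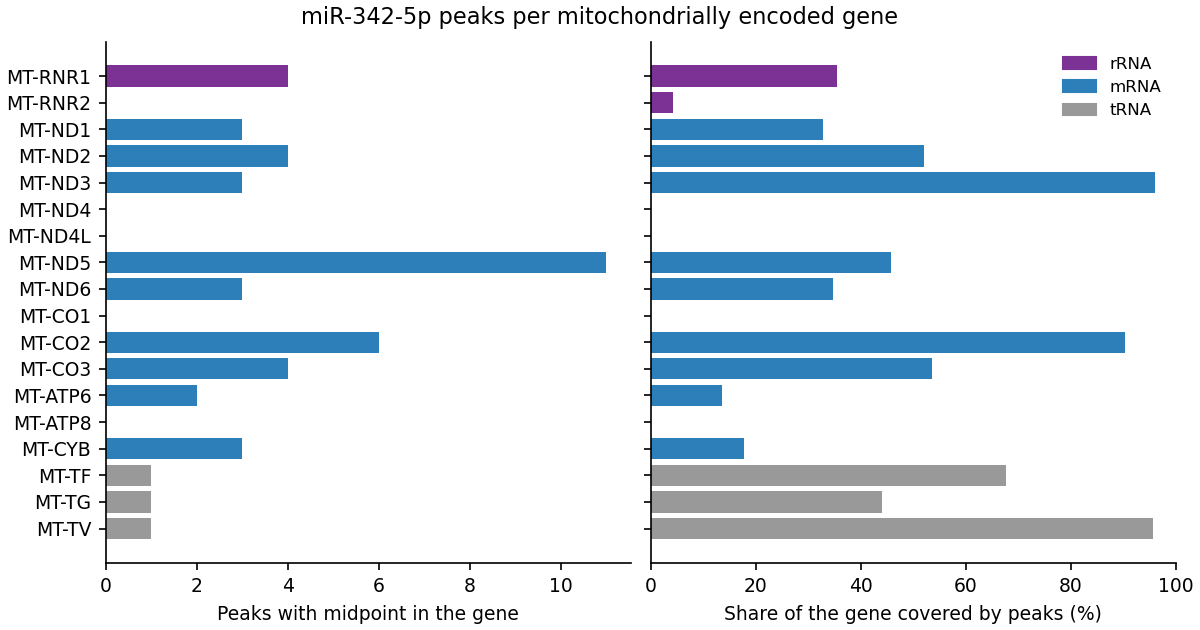
Number of miR-342-5p peaks with their midpoint in each gene (left) and share of the gene covered by peaks in percent (right), for all rRNA and mRNA genes and the tRNA genes with a peak. ND5 has the most peaks (11), ND3 the highest cover among mRNAs (96.0%), CO1, ND4, ND4L and ATP8 have none, and the 3 peaks in ND6 are on the opposite strand.

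A 7mer site of miR-342-5p was found within 50 nt of the summit in 6 of the 47 mitochondrial windows (12.8%, 95% Wilson interval 5.98–25.2%). In the nuclear windows of the same list, a 7mer or 8mer was found in 1649 of 4963 (33.2%, 31.9–34.5%). The share was lower by 20.5 percentage points in the mitochondrial windows (Fisher's exact test, two-sided, p = 0.00263). The plus strand held only 9 sites of 7 nt and no 8mer, which limited the share that mitochondrial windows could reach. The test therefore cannot separate the placing of peaks from the sites available to them. The test treats peaks as independent, and abutting peaks are not. With 1 peak, the highest, kept per group of peaks less than 50 nt apart, the difference was no longer past 0.05, at 4 of 15 against 1444 of 3576 (same exact test, p = 0.430). When the 6mer was counted as well in these highest peaks, the direction turned, with 11 of 15 against 2060 of 3576 (73.3%, higher by 15.7 percentage points, same exact test, p = 0.297).

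The classes of site differed in base composition. CACCCCA, which needs no G, was the best match in 5 mitochondrial windows (10.6%) and in 11.1% of the nuclear windows. These shares leave out the 8mer GCACCCCA, which also holds CACCCCA. The 8mer was the best match in 0 mitochondrial and 452 nuclear windows (9.11%). GCACCCC, alone or within an 8mer, was present in 1 mitochondrial window (2.13%) and in 1097 nuclear windows (22.1%). G made up 11.2% of the mitochondrial windows, 13.1% of the plus strand as a whole and 24.8% of the nuclear windows, and C made up 33.0%, 31.3% and 33.5%. Any part of base composition in the shares of sites was not tested. On the opposite strand, 0 of 47 mitochondrial and 73 nuclear windows (1.47%) had a site. MiR-342-3p sites were in none of the mitochondrial windows.

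Of the 9 sites, 5 lay under a peak. These are the MT-TF site (score 149, centre 12 nt from the summit), both ND2 sites (score 277 at 23 nt and score 304 at 2 nt) and both ND5 sites (scores 36 and 82, each at 5 nt). The median score was 162 for the 6 windows with a site and 40 for the others. In nuclear windows of the list these medians were 22 and 17, and neither contrast was tested. Of the 10 highest peaks, 2 had a 7mer site and 6 any match including the 6mer.

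The other 3 sites had no summit within 50 nt. They are CACCCCA at 4389–4395, opposite to the glutamine tRNA gene MT-TQ, GCACCCC at 8269–8275, which begins on the last base of CO2 and has its centre 118 nt after the nearest summit, and CACCCCA at 14812–14818 in CYB. At the MT-TQ and CO2 sites, 100% of the 30 nt words within 50 nt had an exact copy in the nuclear genome. At the CYB site 0% had one. At the 6 sites near a summit the share was 1.28% to 61.5%. A part of such copies in the absence of a summit was not tested. The sequences of these 3 sites are shown for comparison with those near a summit.
MT-TQ, opposite strand of the gene, chrM:4378-4407, plus strand: gccacctatcaCACCCCAtcctaaagtaag
MT-CO2, 3′ end, chrM:8258-8287, plus strand: tttaccctataGCACCCCctctaccccctc
MT-CYB, chrM:14801-14830, plus strand: atcgacctcccCACCCCAtccaacatctcc

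The 6mer CACCCC, alone or within a 7mer, occurred 21 times on the plus strand and 0 times on the minus strand, and 14 of the 21 were under a peak. The median distance from its centre to the summit of that peak was 6.5 nt, and it was at most 12 nt for 11 of the 14. As stated above, peaks covered 25.3% of the chromosome. Of the 15 stretches, 10 contained the 6mer and 11 had it in the window of their highest peak. The stretches without it were those in MT-TV, ND1, CO2 and the first of ND5, with top scores of 214, 91, 319 and 31. The choice of the 6mer for this count was made after the windows had been searched. The longest run of Watson-Crick pairs with any part of miR-342-5p had a median of 6 nt in both mitochondrial and nuclear windows, and the highest in a mitochondrial window was 9 nt, with bases 13 to 21 of the miRNA, at the ND2 peak with a score of 89.

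Stretches of the mitochondrial chromosome have copies in the nuclear genome, so the origin of a short read is not always unique. In GRCh37, 38.9% of all 30 nt words of the chromosome had an exact copy on a nuclear chromosome. Inside peaks this was 26.3% of the words, and elsewhere 41.5%. Of the 47 peaks, 39 had a nuclear stretch of at least 90% identity over 30 nt or more, 33 contained at least 1 word with an exact copy, and in none did every word have one. The 3 peaks shorter than 30 nt hold no such word and could meet none of these criteria. The part of this in the pattern of peaks was not tested.

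For the mRNA genes without a peak, the share of 30 nt words with an exact copy was 71.1% in CO1, 46.6% in ATP8, 23.0% in ND4 and 17.9% in ND4L. Among those with peaks it ranged from 4.73% in ND3 to 66.3% in ATP6. The 2083 nt without a peak around CO1 had exact copies for 73.4% of its words, and the 1958 nt without a peak around ND4 for 24.6%. Any part of such copies in the absence of peaks from a gene was not tested.

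**Figure D3:**
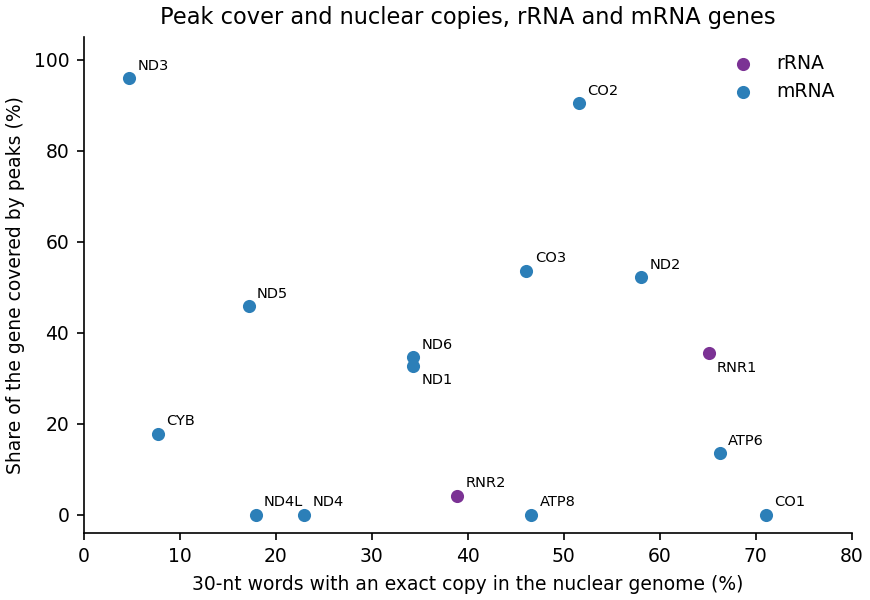
Share of each rRNA and mRNA gene covered by miR-342-5p peaks (%) against the share of its 30 nt words with an exact copy in the nuclear genome (%). CO1 has the highest share of copied words (71.1%) and no peak, CO2 (51.6%) is covered to 90.4% and ND4L (17.9%) has no peak. Pooled over mRNA genes, the share of copied words is 45.8% without a peak and 33.7% with one. For rRNA genes it is 38.9% and 65.1%. The cover of ND6 is by peaks on the opposite strand.

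Peaks in nuclear copies were looked for as well. In the miR-342-5p list, 9 nuclear peaks had their midpoint in a stretch with at least 90% identity to the mitochondrial chromosome over 30 nt or more, and in the miR-342-3p list 0 had. All 9 corresponded to the plus strand of the mitochondrial chromosome. The highest, with a score of 827, lay on chromosome 2 (149639294–149639387, minus strand, GRCh37), where KIF5C-AS1 is annotated, in a copy of 12S rRNA with 98.5% identity over 132 nt. A group of 7 on the minus strand of chromosome 11, with scores of 9 to 205, lay in a copy of both rRNAs with 94.2% identity over 2452 nt (10529434–10531883). In the GENCODE release used here, no gene of that strand held their midpoints, and other annotations were not searched. Of these 7, 5 corresponded to 16S rRNA, which had no peak by midpoint on the mitochondrial chromosome itself, and the highest was that with a score of 205 (10529893–10529956). The remaining peak, with a score of 66, lay on chromosome 1 (566734–566799, plus strand) in MTCO1P12, a pseudogene of CO1 within a copy of 5846 nt with 98.5% identity. For 16S rRNA and CO1, peaks were thus listed in nuclear copies and none by midpoint at the mitochondrial gene. Whether reads in these copies came from the mitochondrial or the nuclear RNA was not tested.

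Most proteins of the mitochondrion are encoded in the nucleus, and the genes that work with the mitochondrial transcripts were counted for comparison. Of 84 nuclear genes for subunits of the respiratory complexes and ATP synthase, the miR-342-5p list had a peak of the same strand in 14 (16.7%) and the miR-342-3p list in 18 (21.4%), beside the 11.8% and 11.8% of all nuclear protein-coding genes given above. Both mimics had a peak in 4 of them. Of 78 genes for proteins of the mitochondrial ribosome, 9 (11.5%) had a miR-342-5p peak and 5 (6.41%) a miR-342-3p peak, and of 39 genes for transcription, processing and turnover of mitochondrial RNA, 6 (15.4%) and 2 (5.13%). The highest miR-342-5p scores were 625 in ATP5MC3, a subunit of the ATP synthase ring (chromosome 2, 176046083–176046128, with a 7mer site), 113 in PDE12, an enzyme that removes poly(A) from mitochondrial mRNAs (chromosome 3, 57542781–57542883, with an 8mer), and 108 in NDUFA12 of complex I (chromosome 12, 95365252–95365340, with an 8mer). For miR-342-3p they were 218 in COX6B1 of complex IV (chromosome 19, 36145479–36145573), 201 in UQCRC2 of complex III (chromosome 16, 21982874–21982941) and 148 in ATP5PB of ATP synthase (chromosome 1, 112002183–112002256), and none of these summits had a 7mer or 8mer for that strand within 50 nt. MiR-342-3p peaks were listed in 6 of 37 nuclear genes of complex I and 3 of 9 of complex III. For complexes IV and V the counts were 2 of 15 and 7 of 19. The 13 mitochondrial mRNA genes of these complexes had none. They are few beside a share of 11.8%, and the contrast was not tested.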

How the data were processed

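Ago-HITS-CLIP was done by the authors in MDA-MB-231HM cells with 3 libraries for each of the miR-342-3p, miR-342-5p and negative control mimics. The submitters' processing notes name cutadapt 1.13, UMI-tools, TopHat2 2.0.13 and MACS2 2.1.1.20160309 with hg19, and the paper adds a filter on alignment quality with Samtools. How multiply mapped reads and the scaling of libraries were handled is not given in the sources used here. The authors deposited 2 lists of peaks with a score over the negative control, called per strand on merged replicates; depth per library is unknown.

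Starts and summits were read as 0-based and are printed 1-based. Peaks were placed by midpoint on GENCODE release 44 mapped to GRCh37. Sites were searched in 101 nt around each summit. Nuclear copies were found as exact 30 nt words and with blastn 2.17.0 (word size 11, no masking). Scripts used pysam 0.24.0, samtools 1.23.1, scipy 1.17.1, pandas 2.3.3, numpy 2.4.6 and matplotlib 3.10.9 in Python 3.11.15. Fisher's exact test was two-sided, with a threshold of 0.05 and no correction, for the one comparison tested. Peaks named in full were the 10 highest, those with a 7mer or 8mer site and those opposite to a gene, and 3 nuclear genes per list by score. The members and lists were chosen with earlier results of these data known. All 201 nuclear genes listed matched the annotation by symbol or synonym. Searches and placement were tested on simulated data. The alternatives were other minimum scores, placements, windows, site classes, gene positions and limits of identity.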

Additional observations from a re-analysis of the deposited data

How the results depend on the processing

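The numbers of mitochondrial peaks moved with the minimum score and with joining. The 47 miR-342-5p peaks became 23 at a score above 50, 15 at a score above 100 and 15 with neighbours joined, and the miR-342-3p list had 0 under each of these. Nuclear stretches similar to a peak were found for 24 peaks instead of 39 when at least 95% identity over 50 nt was required, and nuclear miR-342-5p peaks in such stretches fell from 9 to 2. For the seed sites, keeping 1 peak per group changed the difference to -13.7 percentage points (exact test, p = 0.430), and, in an alternative chosen after seeing the data, to 15.7 percentage points with the 6mer counted (exact test, p = 0.297). In both, fewer peaks were tested. The other 7 settings gave -9.11 to -23.2 percentage points with exact p from 0.000843 to 0.0194. The value of -9.11 was for the 8mer alone. Its count of 0 of 47 mitochondrial windows was fixed beforehand, since the plus strand holds no 8mer, so it lends no support. All 7 settings counted abutting peaks separately, so they do not address that limit. Those that moved the mitochondrial sequence by 1 or 2 nt gave the same counts as the main setting. The number of genes with a peak was between 12 and 15 under all placements tried. Requiring the strand of the gene left ND6 with 0 peaks, and a score of at least 10 left MT-TG with 0 and ATP6 with 1. No paired analysis was possible because the lists merge the replicates, and for the same reason no library could be left out. Peaks below the minimum score of 5 would not be seen. Depth per library is unknown, and the numbers of peaks in both lists are given without allowance for it.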
